A study of Mus musculus with 7 samples.

Results

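The imprinted growth genes examined here are H19, Meg3, Dlk1, Grb10, Plagl1, Peg3, Ndn, Cdkn1c, Mest and Peg10. They were taken by symbol from a table of 53715 mouse genes, in which all 10 were found and all 10 had a mean of at least 1 TPM. TPM gives each gene's transcripts, corrected for length, out of a total that is the same in every library. The table gives total expression, so reads of the maternal and the paternal allele were not separated.

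Imprinted genes are transcribed from the allele of a single parent, which is set by DNA methylation laid down in the egg or sperm and kept in the body's cells afterwards. Many of them act on prenatal growth: paternally expressed genes are often growth promoting and maternally expressed genes often growth restraining. They lie in clusters that share a control region, and in mouse several are abundant in fetal mesenchyme and decline after birth. Embryonic fibroblasts are known to express many of them.

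The study tested R406, an inhibitor of the kinase Syk, against its solvent DMSO in mouse embryonic fibroblasts of the OG2 strain background, CBA-Tg(Pou5f1-EGFP)2Mnn/J, taken at embryonic day 13.5 and used at passage 3. The RNA groups were 2 libraries of cells given R406 and 2 libraries of cells given DMSO. Both groups were kept in Stage 1 medium of chemical reprogramming for a protocol of 12 days. That medium held bFGF at 20 ng/ml, VPA at 0.5 mM, CHIR99021 at 20 μM, 616452 at 10 μM, Parnate at 5 μM, forskolin at 50 μM, AM580 at 0.5 μM, EPZ004777 at 5 μM and vitamin C at 250 μM. A separate experiment mapped Nfatc1, a calcium-regulated transcription factor, by CUT&Tag with an anti-FLAG antibody after 4 days. Its cells carried rtTA and doxycycline-driven FLAG-Nfatc1 from lentivirus, with 1 library given R406 and 1 given DMSO, so the protein was supplied from outside rather than from its own gene. No source used here gives the dose of R406 or the day of RNA harvest. The labels do not say whether the replicates were separate cultures, and the p-values below therefore reflect the spread among 4 libraries, which may be technical.

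In each library 13537 to 14045 genes were at 1 TPM or more, and read depth is unknown because TPM keeps no depth. All 10 fibroblast markers passed the filter on low values, with summed levels of 4545 and 3385 TPM in the R406 libraries and 3420 and 2993 TPM in the DMSO libraries. Of these markers 1 rose and 2 fell, and their median log2 difference was -0.13. The summed level of 10 extraembryonic endoderm markers was 346 and 186 TPM with R406, against 49.6 and 58.4 TPM with DMSO, and 5 of 8 tested markers rose. The summed level of 7 epithelial markers was 799 and 456 TPM with R406, against 153 and 147 TPM with DMSO, and 6 of 7 rose. The summed level of 11 macrophage markers was 7.35 and 7.44 TPM with R406, against 270 and 231 TPM with DMSO, and 8 of 8 tested markers fell. The summed level of 5 pluripotency markers was 0.389 and 0.984 TPM with R406, against 1.13 and 0.592 TPM with DMSO. All 5 were under the filter on low values, and only Zfp42 was at 0 in all 4 libraries. Some imprinted genes are also expressed in endoderm and epithelium, and the part of such cells in the values below was not tested. In bulk RNA, fewer cells of a type and less RNA per cell cannot be told apart.

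Promoter windows from RefSeq (GRCm38.p6, the build called mm10 in the peak lists; 250 bases before to 50 after an annotated start) were found for 7 of the 10 genes, in 11 windows. The windows below are printed 5′ to 3′ on the strand of the gene, because Meg3 had the largest difference between the groups and because an Nfatc1 peak overlapped those of Plagl1 and Peg3. Capitals mark GGAAA or its reverse complement TTTCC, the core letters of NFAT sites, and TGACGTCA, the full cAMP response element, searched on both strands.
Meg3, chr12:109540746-109541045, plus strand: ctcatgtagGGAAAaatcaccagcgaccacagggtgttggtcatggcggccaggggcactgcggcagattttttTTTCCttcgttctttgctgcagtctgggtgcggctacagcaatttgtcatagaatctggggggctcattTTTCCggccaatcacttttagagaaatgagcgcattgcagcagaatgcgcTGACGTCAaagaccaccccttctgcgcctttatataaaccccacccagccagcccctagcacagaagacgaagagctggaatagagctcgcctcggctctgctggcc
Plagl1, chr10:13090582-13090881, plus strand: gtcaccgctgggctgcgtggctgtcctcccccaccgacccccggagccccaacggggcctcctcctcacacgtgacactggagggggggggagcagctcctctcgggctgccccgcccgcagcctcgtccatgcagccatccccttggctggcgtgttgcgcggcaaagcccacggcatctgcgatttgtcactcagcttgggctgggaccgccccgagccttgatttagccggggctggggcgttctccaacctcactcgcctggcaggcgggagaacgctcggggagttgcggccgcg
Peg3, chr7:6730370-6730669, minus strand: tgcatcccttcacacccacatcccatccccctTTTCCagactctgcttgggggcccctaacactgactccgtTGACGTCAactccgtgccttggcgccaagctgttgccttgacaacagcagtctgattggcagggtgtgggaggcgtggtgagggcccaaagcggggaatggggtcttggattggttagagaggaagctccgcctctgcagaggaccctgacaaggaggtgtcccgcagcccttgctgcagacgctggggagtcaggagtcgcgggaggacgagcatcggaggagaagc
The Meg3 window held 3 matches to the NFAT core and 1 cAMP response element. The Peg3 window held 1 core and 1 cAMP response element. The Plagl1 window held neither and had the most CpG dinucleotides of the 3, 26 against 13 in each of the others. The NFAT core was present in 8 of the 11 windows and in 61.34% of 32817 promoter windows in the table, so its presence is common. The 11 windows are not all separate: Mest windows chr6:30737800-30738099 and chr6:30737803-30738102 overlap and hold the same 2 core matches. The cAMP response element was present in 2 of the 11 windows and in 1.79% of the 32817. Forskolin, which raises cAMP, was in the medium of both groups. A match is only a run of letters, and no binding of a cAMP-responsive factor was measured.

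None of the 10 genes passed the test between R406 and DMSO by limma, with 3 at an unadjusted p under 0.05, and Meg3, H19 and Peg10 had the largest differences towards R406. The test was limma on log2(TPM + 1) over 13929 genes with Benjamini-Hochberg adjustment and a threshold of 0.05. Of all genes tested 8.31% passed. The 3 genes with an unadjusted limma p under 0.05 were all higher with R406, and over all genes 26.8% had such a p, 12.3% higher and 14.5% lower. In 8 genes the R406 and DMSO values were fully apart (56.1% of all genes tested). R406 lay wholly above DMSO in 6 of them (25.9% of all genes) and wholly below in 2 (30.2%). The median log2 difference of the 10 genes was 0.30, against -0.02 over all genes tested. The 4 maternally expressed members had a median of 0.67 and the 6 paternally expressed ones 0.19. With other imprinted genes added, the 14 tested maternally expressed genes had a median of 0.30 and the 20 paternally expressed ones 0.01. Of the 14, 10 were above 0 and 4 below, and of the 20, 10 were above and 10 below. A difference by allele was not tested.

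**Figure D1:**
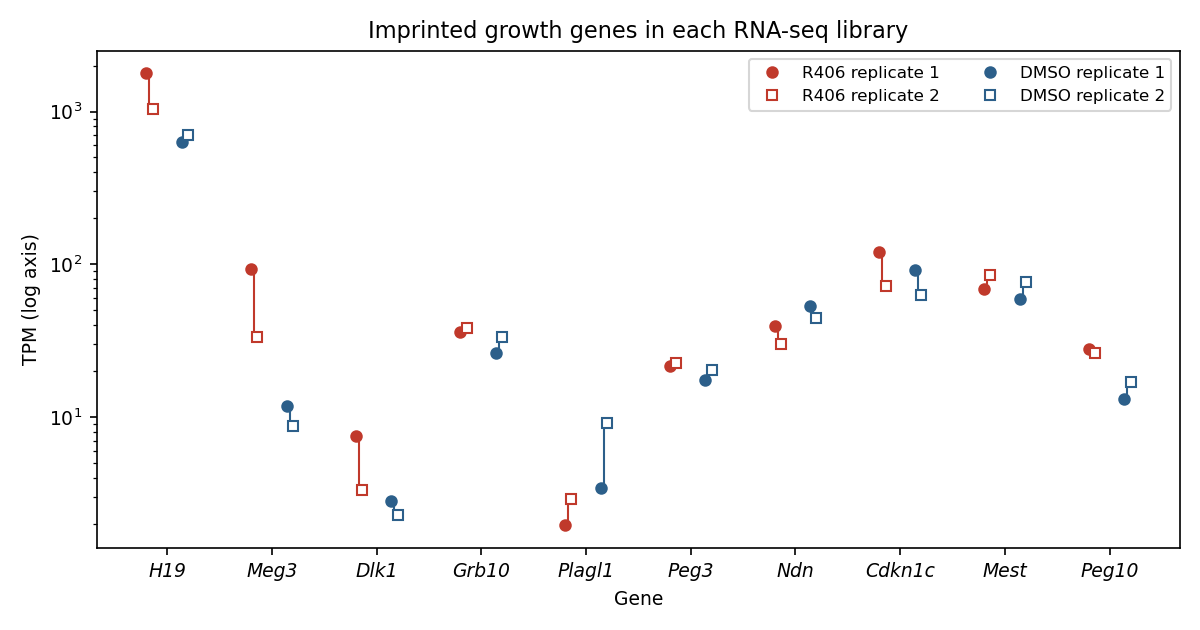
TPM on a log axis for each imprinted growth gene in each of the 4 libraries, with R406 in red to the left of DMSO in blue and a line joining the replicates of a group. H19 lies far above the rest in every library, Meg3 is separated most widely between the groups, and Cdkn1c and Mest overlap.

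The noncoding RNAs H19 and Meg3 come first. H19 is a maternally expressed RNA that restrains growth and carries the precursor of miR-675. Its gene (ENSMUSG00000000031) spans chr7:142575530-142578146. H19 measured 1779 and 1038 TPM in the R406 libraries, against 632 and 701 TPM in the DMSO libraries. Both R406 values were above both DMSO values, and H19 was the most abundant of the 10 genes in each library. The means were 1408 ± 524 TPM with R406 and 666 ± 49.1 TPM with DMSO (each SD in the text is over n = 2 libraries), a log2 difference of 1.03 with a standard error of 0.31 and a limma adjusted p of 0.115. The log2 difference of H19 was 1.42 without R406 replicate 2 and 0.64 without R406 replicate 1, so its size depended on the R406 library kept. It was 0.95 without DMSO replicate 1 and 1.10 without DMSO replicate 2. With all 4 libraries and the replicate number as a block in the fit, H19 passed (limma adjusted p = 0.0318).

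Meg3 is a maternally expressed noncoding RNA at the head of a long row of maternal RNAs and microRNAs. Its gene (ENSMUSG00000021268) spans chr12:109540996-109571729 and overlaps the annotated Rtl1, so reads there cannot be told apart without strand. Meg3 measured 92.4 and 33.6 TPM with R406, against 11.8 and 8.76 TPM with DMSO. The groups did not overlap, but the R406 libraries were far apart. R406 replicate 1, the higher for Meg3, H19 and Dlk1, also had the higher endoderm sum (346 against 186 TPM) of the R406 pair. Its epithelial sum (799 against 456 TPM) and fibroblast sum (4545 against 3385 TPM) were higher too, as were its striated muscle, neural and endothelial sums. Its macrophage, adipocyte and pluripotency sums were the lower ones. Each sum is weighted towards its most abundant genes, and the part of any of these cell types in the differences was not tested. The Meg3 means were 63.0 ± 41.6 TPM with R406 and 10.3 ± 2.18 TPM with DMSO, 6.12 times as high. The log2 difference of Meg3 was 2.34, with a 95% interval of 1.04 to 3.65 and a limma adjusted p of 0.0586. Meg3 lay close to the threshold: its adjusted p was 0.00180 without R406 replicate 2, 0.0230 without R406 replicate 1, 0.0828 without DMSO replicate 1 and 0.0956 without DMSO replicate 2. It also passed after quantile normalization (0.0224) and after centring on the median (0.0242). Meg3 missed the limma threshold with a pseudocount of 0.1 (0.0582), at a mean of at least 5 TPM (0.0744) and with no filter on low values (0.133). In all it passed in 6 of 11 alternatives.

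Dlk1 and Grb10 act at the cell surface and on growth factor receptors. Dlk1 encodes a membrane protein with EGF-like repeats that holds back adipocyte differentiation, and it is the paternally expressed partner of Meg3. The Dlk1 gene (ENSMUSG00000040856) spans chr12:109452485-109463336. Dlk1 was low, at 7.50 and 3.34 TPM with R406, against 2.81 and 2.29 TPM with DMSO. Both R406 values were the higher ones, yet the spread within R406 was wide, and the log2 difference was 0.78 ± 0.36 (SE, limma adjusted p = 0.256). Without R406 replicate 2 the log2 difference of Dlk1 was 1.26 (adjusted p = 0.0327), and without R406 replicate 1 it was 0.29 (adjusted p = 0.600). The ratio of Meg3 to Dlk1 TPM was 12.3 and 10.1 in the R406 libraries, against 4.22 and 3.83 in the DMSO libraries. The R406 libraries therefore differed from each other in the level of both genes more than in their ratio.

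Grb10 encodes an adaptor that dampens signalling from insulin and IGF receptors, and it is expressed from the maternal allele outside neurons. Its gene (ENSMUSG00000020176) spans chr11:11930499-12037428, the longest of the 10 at 106.9 kb. Grb10 measured 36.1 and 38.2 TPM with R406, against 26.3 and 33.4 TPM with DMSO. Both R406 libraries were slightly above both DMSO libraries, with a log2 difference of 0.32 ± 0.20 (SE, limma adjusted p = 0.392) and a 95% interval of -0.21 to 0.84.

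The nuclear regulators Plagl1, Peg3, Ndn and Cdkn1c did not share a direction. Plagl1, also called Zac1, is a paternally expressed zinc finger factor that in mouse regulates other imprinted genes, H19 among them. Its gene (ENSMUSG00000019817) spans chr10:13090832-13131694 and overlaps Hymai. Plagl1 measured 1.95 and 2.88 TPM with R406, against 3.40 and 9.11 TPM with DMSO. Both R406 values lay below both DMSO values, and the DMSO libraries were far apart. The log2 difference was -0.98 ± 0.44 (SE, limma adjusted p = 0.241). Leaving out DMSO replicate 2, the high one, gave Plagl1 a log2 difference of -0.38, and leaving out DMSO replicate 1 gave -1.58.

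Peg3, a paternally expressed zinc finger factor known for effects on growth and maternal behaviour, spans chr7:6703892-6730462 (ENSMUSG00000002265). Peg3 measured 21.5 and 22.5 TPM with R406, against 17.6 and 20.4 TPM with DMSO, a log2 difference of 0.21 ± 0.19 (SE, limma adjusted p = 0.545). Its groups did not overlap, although the gap between them was narrower than the distance between the DMSO libraries. Ndn encodes necdin, a growth suppressor best known in neurons, at chr7:62348277-62349928 (ENSMUSG00000033585). Ndn measured 39.7 and 30.1 TPM with R406, against 53.0 and 44.4 TPM with DMSO, lower with R406 in both libraries, with a log2 difference of -0.48 ± 0.23 (SE, limma adjusted p = 0.260).

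Cdkn1c encodes p57Kip2, an inhibitor of cyclin-dependent kinases, expressed from the maternal allele. Its gene (ENSMUSG00000037664) spans chr7:143458339-143461059. Cdkn1c measured 121 and 71.5 TPM with R406, against 91.8 and 62.8 TPM with DMSO. The groups overlapped, and replicate 1 was the higher library in each. The log2 difference was 0.29, with a 95% interval of -0.59 to 1.16 (limma adjusted p = 0.653), so a difference of this size in either direction was not detectable with these libraries.

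Mest and Peg10 are paternally expressed genes with other roles. Mest encodes a protein of the alpha/beta hydrolase family that is linked to fetal growth and fat expansion, at chr6:30733506-30748466 (ENSMUSG00000051855). Its end overlaps Copg2, so reads there cannot be told apart without strand. Mest measured 68.6 and 85.0 TPM with R406, against 59.1 and 76.8 TPM with DMSO, and the groups overlapped (log2 difference 0.18, 95% interval -0.41 to 0.77, limma adjusted p = 0.679). Peg10 derives from a retrotransposon and is needed for the mouse placenta, at chr6:4747306-4760517 (ENSMUSG00000092035). Peg10 measured 27.9 and 26.3 TPM with R406, against 13.2 and 16.97 TPM with DMSO. The R406 libraries were close to each other and both were well above the DMSO libraries. The means were 27.1 ± 1.08 TPM with R406 and 15.1 ± 2.70 TPM with DMSO, a log2 difference of 0.82 with a 95% interval of 0.28 to 1.35 and a limma adjusted p of 0.0813.

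The order of levels, which TPM allows between genes because it is corrected for length, differed between the groups in the middle ranks and in the last pair. With R406 it ran H19, Cdkn1c, Mest, Meg3, Grb10, Ndn, Peg10, Peg3, Dlk1 and Plagl1. With DMSO it ran H19, Cdkn1c, Mest, Ndn, Grb10, Peg3, Peg10, Meg3, Plagl1 and Dlk1. In R406 the ranges of each neighbouring pair from Cdkn1c to Ndn overlapped, so those ranks are not separated by the spread. In DMSO only Cdkn1c with Mest and Meg3 with Plagl1 overlapped. Dlk1 and Plagl1, next to each other at the bottom, were apart in R406 with Dlk1 above and apart in DMSO with Plagl1 above. Meg3 ranked 4 with R406 and 8 with DMSO by mean TPM.

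Other imprinted genes of the same clusters give the local context. The list held 36 imprinted genes beside the 10, of which 25 had a mean of at least 1 TPM, and in it 1 rose and 3 fell by limma (4.26% and 4.05% of all genes tested). The median log2 difference of the 25 was 0.03. Around Meg3 the changes ran in opposite directions. Mirg, a maternally expressed RNA downstream that holds many microRNAs, rose to 17.02 and 9.05 TPM with R406, against 2.15 and 3.50 TPM with DMSO (log2 1.84, limma adjusted p = 0.0484). Its call was lost without DMSO replicate 1 (adjusted p = 0.128), at a mean of at least 5 TPM (0.0635) and with no filter on low values (0.119). Dio3, the paternally expressed gene at the far end of the cluster, encodes the deiodinase that inactivates thyroid hormone. Dio3 fell to 20.8 and 18.4 TPM with R406, against 180 and 113 TPM with DMSO, a log2 difference of -2.81 ± 0.28 (SE, limma adjusted p = 0.0165). The call of Dio3 held on leaving out any 1 library (adjusted p of 0.00418 to 0.0261) and was lost with no filter on low values (0.0593).

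Rian, the maternal RNA that lies between Meg3 and Mirg, measured 65.9 and 73.4 TPM with R406, against 40.9 and 59.1 TPM with DMSO (log2 0.49, limma adjusted p = 0.279). The ratio of Meg3 to Rian TPM was 1.40 and 0.457 with R406, against 0.289 and 0.148 with DMSO, so the neighbouring maternal RNAs did not keep a fixed ratio, also between replicates. Igf2, the paternally expressed growth factor that shares enhancers with H19, went the other way from H19 in value. Igf2 measured 311 and 343 TPM with R406, against 685 and 440 TPM with DMSO (log2 -0.75, limma adjusted p = 0.164). The ratio of H19 to Igf2 TPM was 5.73 and 3.03 with R406, against 0.923 and 1.59 with DMSO. Both R406 libraries thus held several times as much H19 as Igf2 RNA. Of the DMSO libraries, replicate 1 held slightly less H19 than Igf2 and replicate 2 held more.

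**Figure D2:**
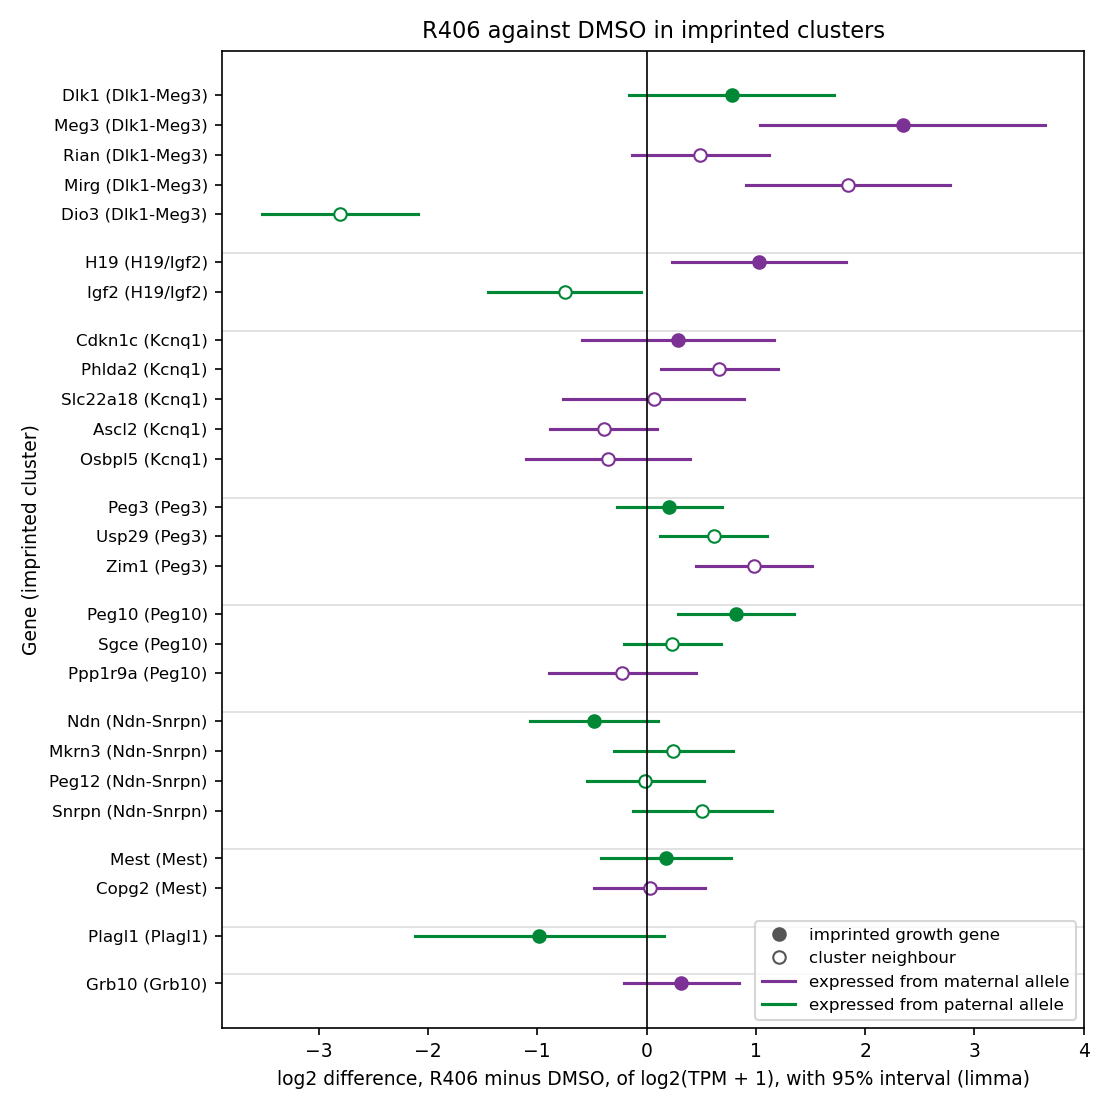
Log2 difference, R406 minus DMSO, of log2(TPM + 1) with its 95% interval for imprinted growth genes (filled) and tested neighbours of the same cluster (open), in purple where the maternal and green where the paternal allele is expressed. Dio3 at -2.81 and Meg3 at 2.34 lie at opposite ends of the axis within 1 cluster.

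None of the 4 tested neighbours of Cdkn1c passed limma's threshold, and 1 of 4 had an unadjusted p under 0.05, near the 26.8% of all genes tested. It was Phlda2, which restrains placental growth, at 1.63 and 1.28 TPM with R406, against 0.411 and 0.688 TPM with DMSO (adjusted p = 0.123). The others, Slc22a18, Ascl2 and Osbpl5, had log2 differences of 0.07, -0.39 and -0.35. Beside Peg3, Zim1 measured 8.06 and 8.40 TPM with R406, against 3.18 and 4.21 TPM with DMSO (log2 0.98, limma adjusted p = 0.0550), and Usp29, whose start lies beside that of Peg3 on the other strand, had a log2 difference of 0.61 (adjusted p = 0.122). Both had an unadjusted p under 0.05 and neither passed with the main settings. Usp29 passed in 0 of 10 alternatives and Zim1 in 3 of 11. For Zim1 these were quantile normalization (limma adjusted p = 0.0491), the replicate block (0.0139) and TPM rescaled without mitochondrial and ribosomal protein genes (0.0485). Sgce, which lies beside Peg10, had a log2 difference of 0.24 (limma adjusted p = 0.450), against 0.82 for Peg10, and Ppp1r9a had -0.22. Of the neighbours of Ndn, Snrpn, Mkrn3 and Peg12 had log2 differences of 0.51, 0.24 and -0.01, and Copg2 beside Mest had 0.03, all short of the threshold.

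Among 9 tested imprinted genes of other clusters, 2 fell and 0 rose by limma, with 5 at an unadjusted p under 0.05, all lower. Over all genes tested, 4.05% fell, 4.26% rose and 14.5% were lower at such an unadjusted p. Slc22a3 of the Igf2r cluster, named outside the rule, was under the filter, at 1.75 and 1.44 TPM with R406, against 0.223 and 0.231 TPM with DMSO. It was called higher on TPM rescaled without mitochondrial and ribosomal protein genes. Zdbf2 and Rasgrf1, also under the filter, were lower with R406 in both libraries, and Sfmbt2 overlapped. Igf2r, the maternally expressed receptor that sends IGF2 to lysosomes for breakdown, fell to 26.8 and 27.3 TPM with R406, against 63.5 and 63.5 TPM with DMSO (log2 -1.20, limma adjusted p = 0.0269). Replicates of Igf2r differed little within either group, yet its call was lost without DMSO replicate 1 (0.139) or DMSO replicate 2 (0.120), and with no filter (0.0609). Impact, a paternally expressed regulator of translation under stress, fell to 21.6 and 23.8 TPM with R406, against 41.9 and 46.6 TPM with DMSO (limma adjusted p = 0.0486), and its call passed in only 2 of 11 alternatives. Impact missed the threshold whichever of the 4 libraries was left out (0.0797 to 0.258) and with a pseudocount of 0.1 (0.0502), a mean of at least 5 TPM (0.0555), no filter (0.0889), quantile normalization (0.0723) or median centring (0.0570).

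CUT&Tag for FLAG-Nfatc1 placed peaks in or near several of the genes, most strongly in Peg3. The R406 list held 36885 peaks and the DMSO list 21246. A peak summit lay within 10 kb of 7 of the 10 genes with R406 and of 4 of 10 with DMSO. Over 49943 annotated genes the shares were 43.8% with R406 and 31.2% with DMSO, so the longer R406 list reached more genes throughout. There was 1 library per condition and no test, the fold enrichment and −log10 q of a peak are the authors' values and were not compared between the lists, and the library made without primary antibody was not analysed here.

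The Peg3 peak lay inside the gene near its 5′ end, at chr7:6727573-6729799 with R406 and chr7:6727573-6729561 with DMSO. Its fold enrichment was 39.2 in the R406 list, above 96.9% of the peaks of that list, and 16.8 in the DMSO list, above 86.6% of the peaks there. The summit was 2.22 kb inside the 5′ end with R406 and 2.44 kb with DMSO. Another DMSO peak at chr7:6730318-6730568 overlapped the printed Peg3 promoter window, with a fold of 5.10, and no R406 peak did. Peg3 RNA differed little between the groups.

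Meg3 held 1 peak in each list within 10 kb, near its 3′ end and overlapping between the lists: chr12:109569315-109569715 with R406 (fold 8.22) and chr12:109569200-109569681 with DMSO (fold 8.74). No peak of either list overlapped the printed Meg3 promoter window. Peg10 held a peak shared by the lists, chr6:4749078-4749401 with R406 (fold 8.86) and chr6:4749094-4749441 with DMSO (fold 8.74). In the R406 list Peg10 also held a wider peak, chr6:4747424-4748724 (fold 9.49). Grb10 had 4 peaks in its body with R406 and 1 with DMSO, and the DMSO peak at chr11:12025785-12026301 overlapped an R406 peak.

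Plagl1 had peaks within 10 kb in the R406 list only. One of them, chr10:13090574-13090960, covered the whole printed promoter window, with a fold of 6.33, which is above 27.2% of the peaks of its list. Another with the same fold lay 2.24 kb inside the gene. Mest and Cdkn1c likewise had 1 peak each within 10 kb in the R406 list and none in the DMSO list, with folds of 5.06 and 6.96, both below the R406 list's median of 8.86. H19 had its nearest R406 peak 10.33 kb away, Ndn had its nearest 23.17 kb away, and Dlk1 had none within 50 kb in either list. In all, 12 R406 peaks and 6 DMSO peaks lay within 10 kb of the genes, and 4 of each overlapped a peak of the other list by at least 1 base. Over the whole lists, 41.4% of R406 peaks and 73.0% of DMSO peaks did so. A difference in Nfatc1 binding was not tested. Among windows of the genes, 1 of 11 overlapped an R406 peak and 1 of 11 a DMSO peak, against 22.27% and 14.94% of all promoter windows.

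**Figure D3:**
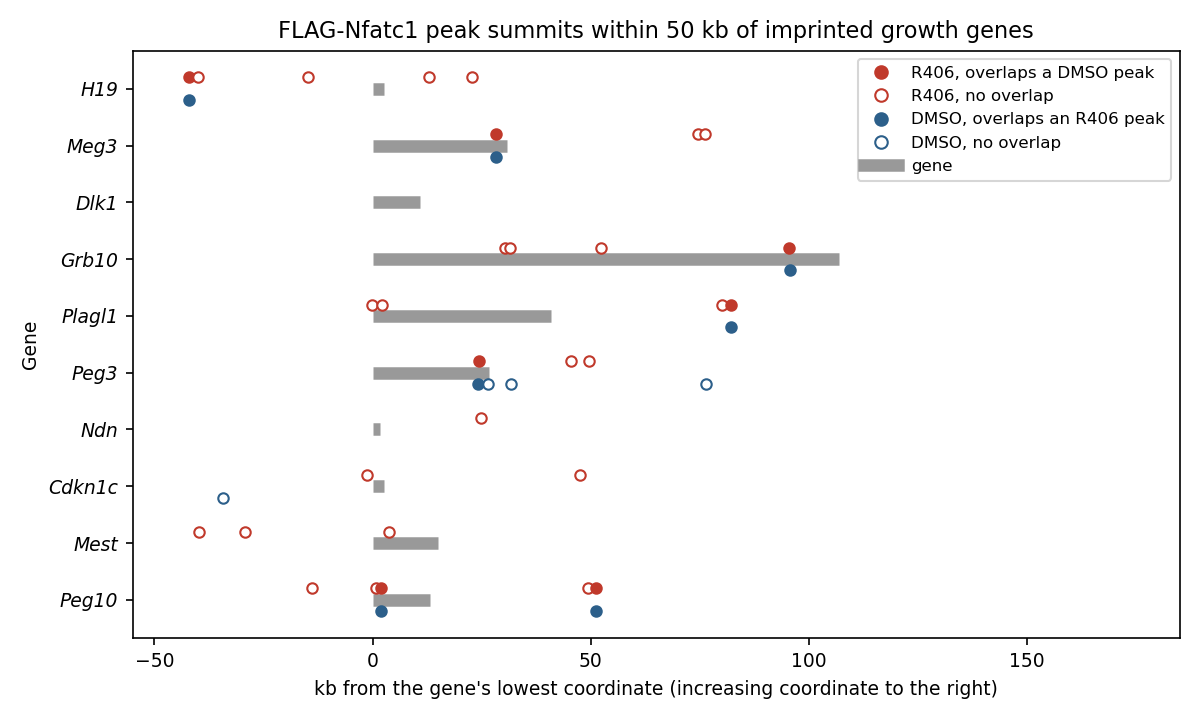
Summits of FLAG-Nfatc1 peaks within 50 kb of each imprinted growth gene, in kb from the gene's lowest coordinate, with R406 in red above the gene (grey bar) and DMSO in blue below it. Filled points overlap a peak of the other list; Meg3, Grb10, Peg3 and Peg10 have such a point inside the gene, and Dlk1 has no point.

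Genes with and without a nearby peak both included some of the larger RNA differences. Meg3 and Peg10, higher in value with R406, had a shared peak, as did Grb10 and Peg3, whose RNA differed by log2 0.32 and 0.21. H19, at log2 1.03, and Dlk1, at log2 0.78, had no peak within 10 kb in either list. Plagl1, at log2 -0.98 and so lower in value with R406, had peaks within 10 kb in the R406 list and none in the DMSO list. The labels give the FLAG-Nfatc1 vector for the CUT&Tag cells and not for the RNA libraries.

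**Figure D4:**
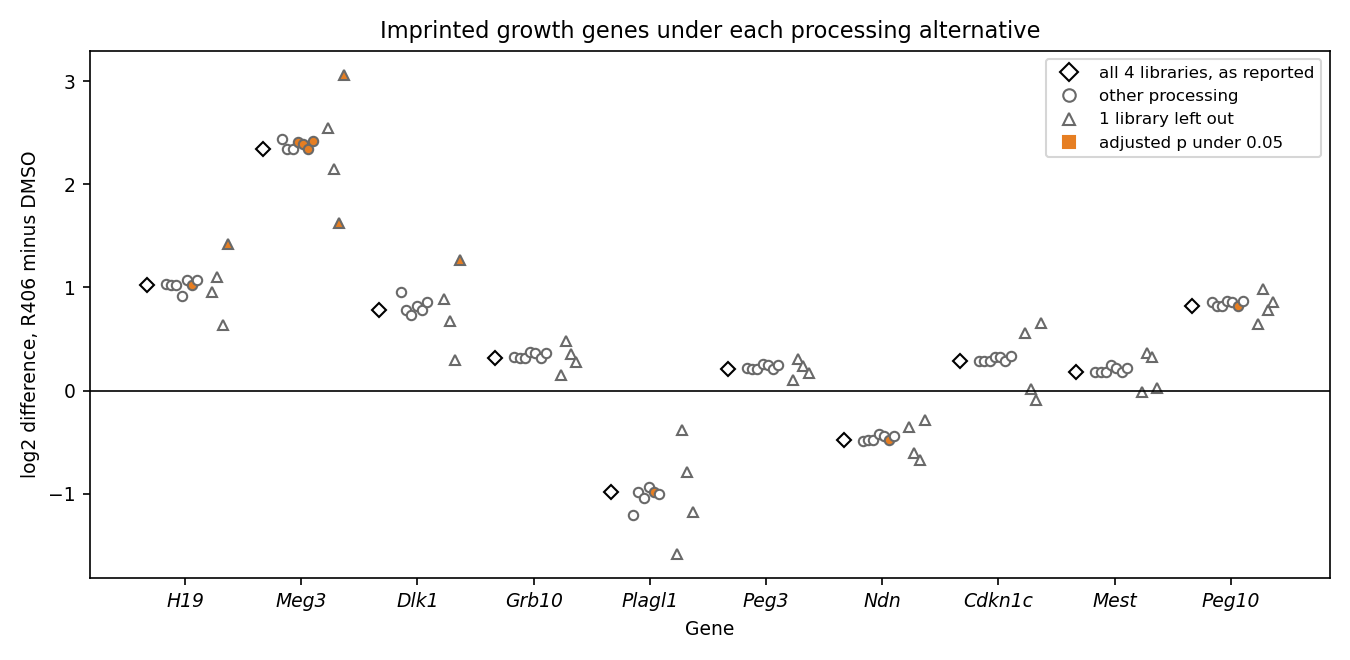
Log2 difference, R406 minus DMSO, for each imprinted growth gene with all 4 libraries (diamonds), under other processing (circles) and with 1 library left out (triangles); orange marks an adjusted p under 0.05. Meg3 stays between 1.63 and 3.06, while Cdkn1c and Mest cross 0 when 1 library is left out.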

How the data were processed

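RNA-seq values are TPM per gene, as the authors deposited them in 1 table of 53715 genes (53620 with a symbol in the gene table used); the 4 files of single libraries held the same values. The labels' protocols name total RNA and the NEBNext Ultra kit, read here as unstranded. HISAT2 2.1.0, StringTie 2.0 and mm10 are named in the submitters' processing notes; the annotation is not given in the sources used here. TPM has a fixed sum, and more of some transcripts therefore means less of the others.

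Peak lists, 1 per CUT&Tag library, hold a deposited fold enrichment (ratio), −log10 p, −log10 q and a score; Bowtie2 2.2.5 and MACS2 2.1.2 are named in the submitters' processing notes, with mm10 as the build. The score was not used.

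The values were put on the scale log2(TPM + 1) and compared in limma 3.58.1 (R 4.3.3; prior variance with a trend). The 13929 genes whose mean TPM was 1 or more entered, p-values are two-sided, and Benjamini-Hochberg adjusted values under 0.05 passed. A difference on this scale understates the change of low genes. The fit was tested on simulated data with independent noise between libraries, which does not show how it behaves on these libraries. Peaks were joined to RefSeq genes (GRCm38.p6) by a summit within 10 kb. The genes and lists were chosen with earlier results of these data known. Named were all 10 genes, tested cluster neighbours, other imprinted genes past the threshold, and for imprint maintenance the called gene and those of smallest p. Alternatives were the pseudocount, filters, scaling, replicate block and left-out libraries.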

Additional observations from a re-analysis of the deposited data

How the results depend on the processing

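The 10 imprinted growth genes kept their side of the threshold and their direction in 94 of 108 pairs of gene and alternative setting. These genes came past the threshold in 12 pairs and changed sign in 2 pairs, neither of which was called. Of them, 1 gene (Meg3) was called higher with quantile normalization, median centring or TPM rescaled without mitochondrial and ribosomal protein genes (chosen after seeing the data), and 0 to 3 were when 1 library was left out. The samples share replicate numbers that no label ties to a culture, and across genes the deviations of same-numbered libraries correlated at 0.556. With the replicate block 3 of the 10 growth genes were called higher (H19, Meg3 and Peg10) and 2 lower (Plagl1 and Ndn). Over all 13929 genes tested 2128 were called higher and 2535 lower in that fit, so calls were common throughout. Among other imprinted genes 5 were higher and 7 lower, and among maintenance genes 1 was higher (Uhrf1) and 1 lower (Setdb1).

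Over all genes the counts higher and lower were 593 and 564, 311 and 332 at a mean of at least 5 TPM, 0 and 0 by limma without the filter (of 27879 genes, 5394 had an unadjusted p under 0.05), 877 and 850 with quantile normalization, 933 and 755 with median centring and 900 and 753 on rescaled TPM. Leaving out 1 library gave 159 to 914 higher and 158 to 574 lower. Other imprinted genes called higher were 0 at a mean of at least 5 TPM, 0 with no filter, 2 with quantile normalization, 3 on rescaled TPM and 0 to 1 with 1 library left out; those called lower were 0 with no filter and 1 to 2 with 1 library left out. Maintenance genes called higher were 0 with no filter and 0 to 1 with 1 library left out. Some settings held fewer libraries or other genes, and the cause of these shifts was not tested. Leaving out libraries leaves 1 in an arm, assumed to vary like the others.

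Signs turned, short of the threshold, for Mest (-0.0078 to 0.37 over the leave-outs), Cdkn1c (-0.087 to 0.66), Slc22a18 (-0.039 with quantile normalization, -0.27 to 0.40), Copg2 (-0.12 to 0.18), Peg12 (0.031 with median centring, 0.015 on rescaled TPM, -0.18 to 0.15) and Ppp1r9a (-0.52 to 0.078). An R406 peak with −log10 q of at least 10 lay within 10 kb of 4 of 10 growth genes, against 33.8% of annotated genes. A window of 50 kb gave 7 of 10 growth genes with a DMSO peak, against 54.8% of annotated genes. The other peak settings stayed within 1.5 times.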

Other observations

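Genes that set or keep the methylation of imprinted loci were examined as a list of 16, of which 12 had a mean of at least 1 TPM. In it 1 rose and 0 fell by limma (4.26% and 4.05% of all genes tested), and 3 of 12 had an unadjusted p under 0.05, near the 26.8% of all genes tested. The median log2 difference of the 12 was -0.10. Uhrf1, which brings the maintenance methyltransferase to newly copied DNA and is itself higher in dividing cells, rose to 11.3 and 6.56 TPM with R406, against 1.75 and 2.01 TPM with DMSO (log2 1.75, limma adjusted p = 0.0346). Its call was lost without DMSO replicate 1 (adjusted p = 0.0932) or DMSO replicate 2 (0.0534), and with no filter on low values (0.0999).

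Dnmt1, the maintenance methyltransferase, named here outside the rule and after its values were seen, measured 15.8 and 10.2 TPM with R406, against 16.1 and 11.6 TPM with DMSO, and the groups overlapped (limma adjusted p = 0.863). Tet3, a dioxygenase that oxidises methylcytosine, measured 5.28 and 4.31 TPM with R406, against 2.91 and 3.10 TPM with DMSO (adjusted p = 0.173). Setdb1, a histone methyltransferase recruited to imprinted control regions, measured 10.3 and 8.01 TPM with R406, against 16.2 and 12.7 TPM with DMSO (adjusted p = 0.180). DNA methylation was not measured, and neither allele was followed.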
